A study of Mus musculus with 17 samples.

Results

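The 9 immunoglobulin constant-region genes Ighm, Ighd, Ighg3, Ighg1, Ighg2b, Ighg2c, Ighe, Igha and Igkc were followed by symbol in an RNA-seq table of the mouse diaphragm, in which they are 9 of 47643 gene symbols. All 17 animals were male C57BL/6J mice of 4 months, all received injections into the peritoneal cavity, and only the skeletal muscle portion of the diaphragm was used. Control mice (n = 5) had no tumor and received the mock injection of bovine serum albumin in buffered saline, and Control + rFibcd1 mice (n = 5) had no tumor and received rFibcd1, a recombinant C-terminal fragment of mouse Fibcd1 made in a baculovirus system and delivered in the same albumin solution. LLC mice (n = 3) carried Lewis lung carcinoma, a transplantable mouse lung tumor line implanted under the skin of both flanks, and received the mock injection. LLC + rFibcd1 mice (n = 4) carried the same tumors and received rFibcd1 during the last week of tumor growth. The tumors were therefore grown from an implanted line and lay outside the diaphragm. The comparisons ask how the antibody transcripts of the diaphragm differ with the tumor and with rFibcd1.

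An antibody has heavy chains, whose constant region sets its class, and light chains, whose constant region is kappa or lambda. A naive B cell makes IgM and IgD together, by splicing the same rearranged variable region to Ighm or to Ighd. After activation, class switching cuts out the DNA between Ighm and a constant-region gene farther along the locus, so that the same variable region is joined to an IgG, IgE or IgA constant region. Plasma cells, the secreting stage of the B cell line, hold much more immunoglobulin mRNA per cell than resting B cells do. IgM and IgA are secreted as polymers held together by the J chain, IgG subclasses differ in the receptors and complement they engage, and IgE acts through mast cells and basophils.

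In the GENCODE vM21 annotation of GRCm38, all 8 heavy-chain genes lie on the minus strand of chromosome 12 in the order Ighm, Ighd, Ighg3, Ighg1, Ighg2b, Ighg2c, Ighe, Igha. Ighm spans chr12:113418558-113422730 and Igha, the last of the row, spans chr12:113254830-113260236, 162.5 kb after the start of Ighm. Igkc, the kappa constant region, is a gene of 532 base pairs on the plus strand of chromosome 6 (chr6:70726435-70726966). The 4 IgG genes resemble each other most. Their coding sequences are 76.1% identical between Ighg3 and Ighg1 and 86.3% identical between Ighg2b and Ighg2c, whereas Ighm and Igha share 67.2% of aligned bases. The hinge exon, which joins the antigen-binding arm to the rest of the heavy chain, is a stretch in which the subclasses differ plainly, and it is shown here because the subclasses behaved differently across the mice. The hinge exons are printed 5′ to 3′ on the coding strand, from GRCm38, with in-frame cysteine codons in capitals, which encode residues that can bond the heavy chains to each other:
Ighg3 hinge exon, chr12:113360529-113360576: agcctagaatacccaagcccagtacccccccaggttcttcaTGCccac
Ighg1 hinge exon, chr12:113329844-113329882: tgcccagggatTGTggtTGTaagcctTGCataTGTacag
Ighg2b hinge exon, chr12:113307261-113307326: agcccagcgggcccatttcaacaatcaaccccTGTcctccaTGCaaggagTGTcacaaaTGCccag
Ighg2c hinge exon, chr12:113288263-113288325: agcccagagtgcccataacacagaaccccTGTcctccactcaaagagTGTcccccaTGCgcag

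The Ighg3 hinge has 1 cysteine codon, those of Ighg1 and Ighg2b have 4 and that of Ighg2c has 3. The tails of secreted IgM and IgA are shown because they hold the cysteine, in capitals, at which the J chain joins these classes, and the J chain transcript followed Ighm closely across the mice:
Ighm secreted tail, chr12:113420867-113420923: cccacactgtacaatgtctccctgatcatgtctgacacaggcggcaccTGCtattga
Igha secreted tail, chr12:113258768-113258824: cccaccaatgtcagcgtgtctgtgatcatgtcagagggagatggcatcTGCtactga

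Both tails are 57 bases long with the stop codon and end in the same cysteine codon 2 codons before the stop. The table gives 1 value per gene, so membrane and secreted forms of a heavy chain were not separated. No stretch of 100 bases is shared exactly between members, and of stretches of 50 bases 5.49% of those in Ighg2c and 4.15% of those in Ighg2b recur in another member, so the division of reads among IgG genes carries some uncertainty.

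Values are TPM, read counts divided by gene length and scaled to a common total, at a recovered depth of 50.8 to 54.6 M reads per mouse (M, mega). The steps between low values show the gene lengths that the counting used. For Ighg3 and Ighe they match the secreted-form transcript alone, 1082 and 1367 base pairs, and for the other members the whole annotated exon length, such as 1326 for Ighg2c and 2668 for Igha. Levels of different classes are therefore also compared as read equivalents, the reads that a TPM value stands for. The skeletal muscle markers Acta1, Ckm, Myh1, Myh2, Myh4, Myh7, Tnnt3, Ttn and Mb summed to between 49506 and 63778 TPM in every mouse. Ms4a1, which encodes the B cell marker CD20, was as low as 0.0134 TPM in Control mouse 5.

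The sum of the heavy-chain members varied 303-fold over the 17 mice, from 15.3 TPM in Control mouse 5 to 4636 TPM in LLC mouse 2. Within Control it varied 136-fold and within Control + rFibcd1 41.6-fold. Within LLC it varied 1.60-fold, from 2892 to 4636 TPM, and within LLC + rFibcd1 25.3-fold, from 163.4 to 4135 TPM. The 9 members together held 0.762% to 1.24% of all TPM in the LLC mice and 0.00201% to 0.636% in the Control mice. These are bulk samples, in which fewer cells of a type and less RNA per cell cannot be told apart.

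**Figure D1:**
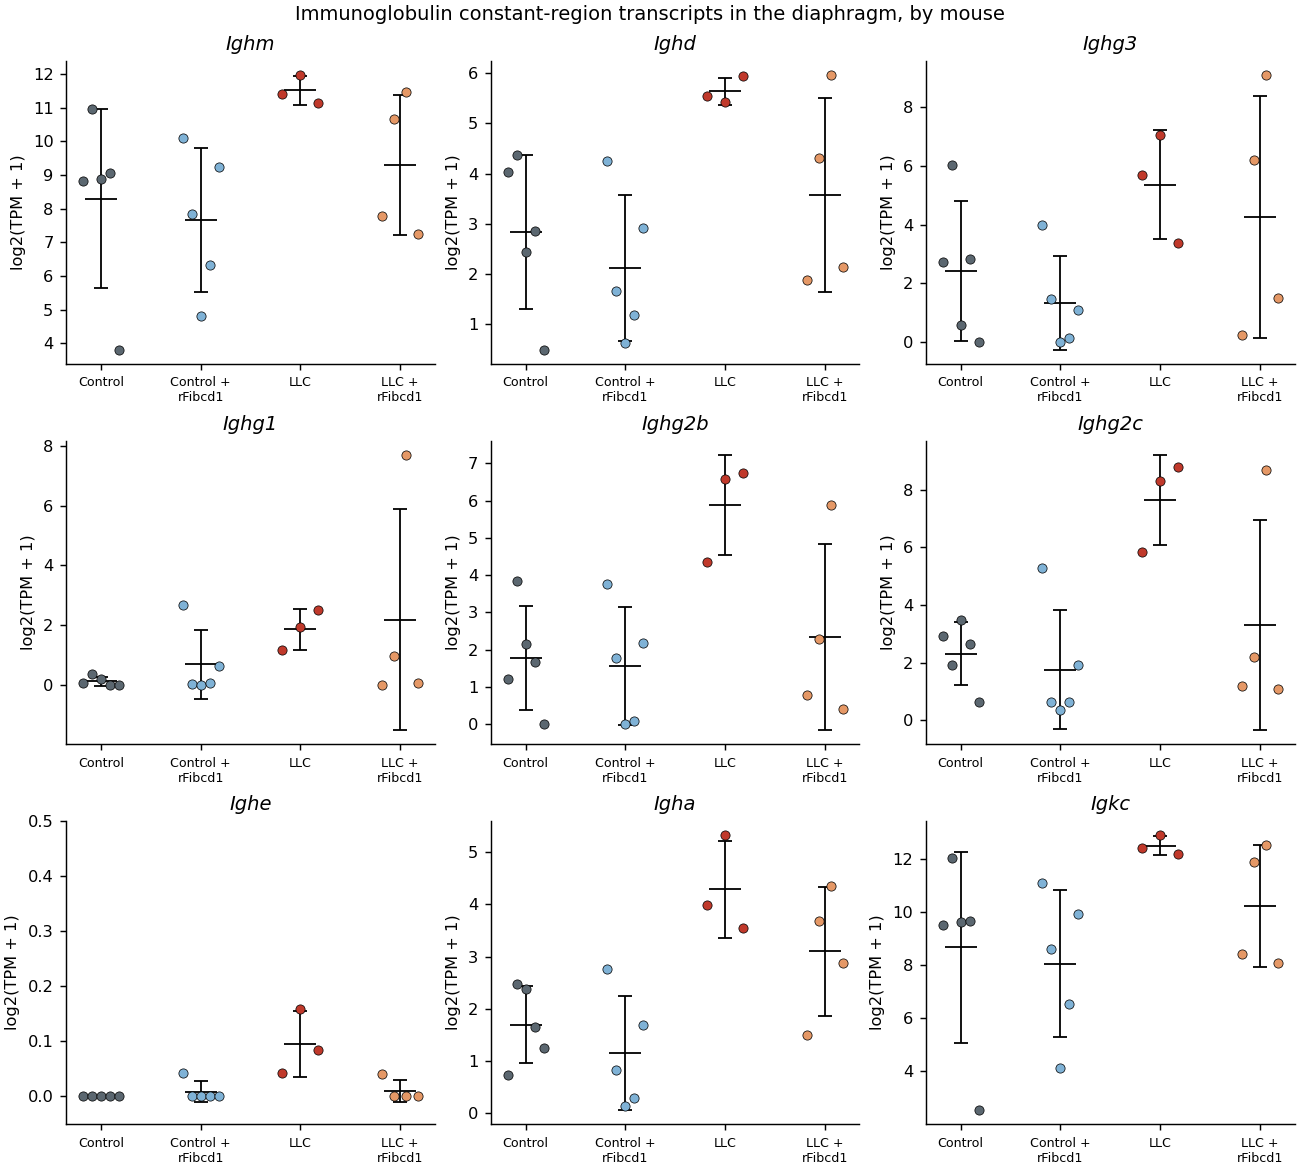
Level of each of the 9 members on the log2(TPM + 1) scale (vertical axis, scaled to each panel) in every mouse by group, with horizontal marks for group means and bars for 1 SD (Control n = 5, Control + rFibcd1 n = 5, LLC n = 3, LLC + rFibcd1 n = 4). The 3 LLC mice lie above all 5 Control mice for every tested member but Ighg3, and the LLC + rFibcd1 mice are spread widely, with mouse 3 of that group far above the others for Ighg1 and Ighg2c.

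From Control to LLC, 4 of the 8 tested members rose at an adjusted p under 0.05 (limma, Benjamini-Hochberg over 13305 genes). They were Ighg2c, Ighg2b, Igha and Ighd, and none fell. Without adjustment 5 members passed, beside 48.3% of all genes. Of all genes tested, 35.8% passed in this comparison and 29.7% passed as higher, and these shares are the level against which the count of members is to be read. The median change of the 8 members was 3.07 on the log2 scale, beside 0.16 for all genes. The groups did not overlap, with LLC higher, for 7 of the 8 tested members, while 33.6% of all genes tested showed this. Ighe was not among the 8 tested members, because it did not reach 1 TPM in 3 mice.

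Ighm, the constant region of IgM and the class made first by every B cell, was the most abundant heavy chain in all 17 mice. Its level was 449.9, 1976, 469.7, 526.9 and 13 TPM in Control mice 1 to 5. It was 2730, 4014 and 2264 TPM in LLC mice 1 to 3. All LLC mice were above all Control mice, but Control mouse 2 came close to the lowest LLC mouse and Control mouse 5 was far below its group. The mean was 687.2 ± 749.3 TPM in Control (SD, n = 5) and 3003 ± 906.3 TPM in LLC (SD, n = 3), 4.37 times as high. This ratio rested on Control mouse 2, without which it was 8.23. The fitted change was 3.21 ± 1.46 (log2, SE; limma adjusted p = 0.0946) and did not pass the threshold, with a 95% interval from 0.10 to 6.32.

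Ighd, the constant region of IgD, which mature naive B cells carry beside IgM, was at 15.2, 19.6, 4.44, 6.23 and 0.392 TPM in Control. It was at 45.9, 41.9 and 60.6 TPM in LLC. The lowest LLC mouse was above the highest Control mouse. Ighd rose by 2.81 ± 1.02 (log2, SE; limma adjusted p = 0.0443). This call was the least stable of the 4: 9 of the 17 fits without 1 mouse kept it, with adjusted p between 0.0294 and 0.141, and it passed in 5 of 12 other settings.

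Ighg2c encodes IgG2c, the IgG2a-type subclass of C57BL/6 mice, which binds activating Fc receptors and fixes complement. It was at 6.57, 2.75, 10.1, 5.22 and 0.562 TPM in Control. It was at 56.6, 311.8 and 437.6 TPM in LLC. LLC mice 2 and 3 were far above LLC mouse 1, which was still above every Control mouse. The means were 5.05 ± 3.66 TPM in Control (SD, n = 5) and 268.6 ± 194.1 TPM in LLC (SD, n = 3), 53.2 times as high. Ighg2c had the largest fitted change of the tested members, 5.32 ± 1.54 (log2, SE; limma adjusted p = 0.0188).

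Ighg2b encodes IgG2b and lies next to Ighg2c. Its level was 1.34, 13.4, 3.45, 2.18 and 0 TPM in Control, and 19.3, 94.3 and 105.6 TPM in LLC. As for Ighg2c, LLC mouse 1 was the lowest of its group and the groups did not overlap. Ighg2b rose by 4.11 ± 1.20 (log2, SE; limma adjusted p = 0.0194).

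Ighg3 encodes IgG3, a subclass often made against carbohydrate antigens without T cell help. It was at 5.55, 64.8, 0.502, 6.06 and 0 TPM in Control, and at 50, 132.4 and 9.28 TPM in LLC. Control mouse 2 was above LLC mice 1 and 3, so that the groups overlapped. The fitted change was 2.93 ± 1.80 (log2, SE; limma adjusted p = 0.204). Ighg1, the IgG subclass linked to interleukin-4 help, was the lowest of the 4 IgG genes in LLC, at 1.22, 2.78 and 4.67 TPM. In Control it was at 0.0460, 0.275, 0.145, 0 and 0 TPM. Every LLC mouse was above every Control mouse, yet the fitted change of 1.74 ± 1.30 (log2, SE; limma adjusted p = 0.299) did not pass. Without LLC + rFibcd1 mouse 3, whose value enters the shared estimate of spread, the adjusted p of Ighg1 in this comparison was 0.0209, and in a fit of the LLC and Control mice alone it was 0.00451. Ighg1 passed the filter on low values only through 5 mice, the 3 LLC mice among them.

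Igha, the constant region of IgA, the main class of mucosal secretions, was at 0.656, 4.56, 4.16, 2.14 and 1.38 TPM in Control. It was at 14.8, 39.2 and 10.7 TPM in LLC. The groups did not overlap, and the spread within Control was narrower for Igha than for Ighm. Igha rose by 2.59 ± 0.69 (log2, SE; limma adjusted p = 0.0145). Ighe, which encodes the heavy chain of IgE, was covered by 9 reads over all 17 mice. LLC mice 1 to 3 had 1, 4 and 2 of them, Control + rFibcd1 mouse 1 and LLC + rFibcd1 mouse 1 had 1 each, and the Control mice had 0. A count of 0 allows up to 3 reads in a mouse, or 0.0873 TPM in Control mouse 1. The LLC mice had 7 reads of Ighe together and the 5 Control mice 0, and in LLC mice 1 and 3 the reads were within what a count of 0 allows. In a fit without the filter on low values, over 22950 genes, the difference was 0.095 on the log2(TPM + 1) scale (limma adjusted p = 0.0133), beside 21.4% of all genes called. As every Control mouse was at 0, with no spread, no change of Ighe is read from it.

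Igkc, the kappa light-chain constant region shared by all classes, was at 728.2, 4283, 801.5, 804.2 and 4.75 TPM in Control. It was at 5511, 7754 and 4723 TPM in LLC. All LLC mice were above all Control mice, with Control mouse 2 close below them. The fitted change was 3.84 ± 1.88 (log2, SE; limma adjusted p = 0.117). The lambda constant regions, fitted in the same way, changed by 3.69 (Iglc1, adjusted p = 0.0685), 3.27 (Iglc2, adjusted p = 0.0610) and 3.11 (Iglc3, adjusted p = 0.0582), so that 0 of 3 tested lambda genes passed by limma and 3 did so unadjusted. Lambda held between 3.8% and 16% of light-chain TPM over the 17 mice.

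Leaving out LLC mouse 3 ended all 4 calls. Without that mouse, 0 of the 8 members passed by limma (4 unadjusted), and only 0.182% of all genes tested did (33.9% unadjusted), so that most calls of the comparison were lost with those of the members. The adjusted p was 0.0946 for Ighg2b, 0.0931 for Ighg2c and 0.0694 for Igha, while each of these 3 passed in the other 16 fits without 1 mouse. By Dunn's test on ranks, without adjustment, 5 of 8 members passed, namely Ighm, Ighg1, Ighg2b, Igha and Igkc, beside 37.5% of all genes. Of the 4 members called by limma, Ighg2c and Ighd did not pass it.

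**Figure D2:**
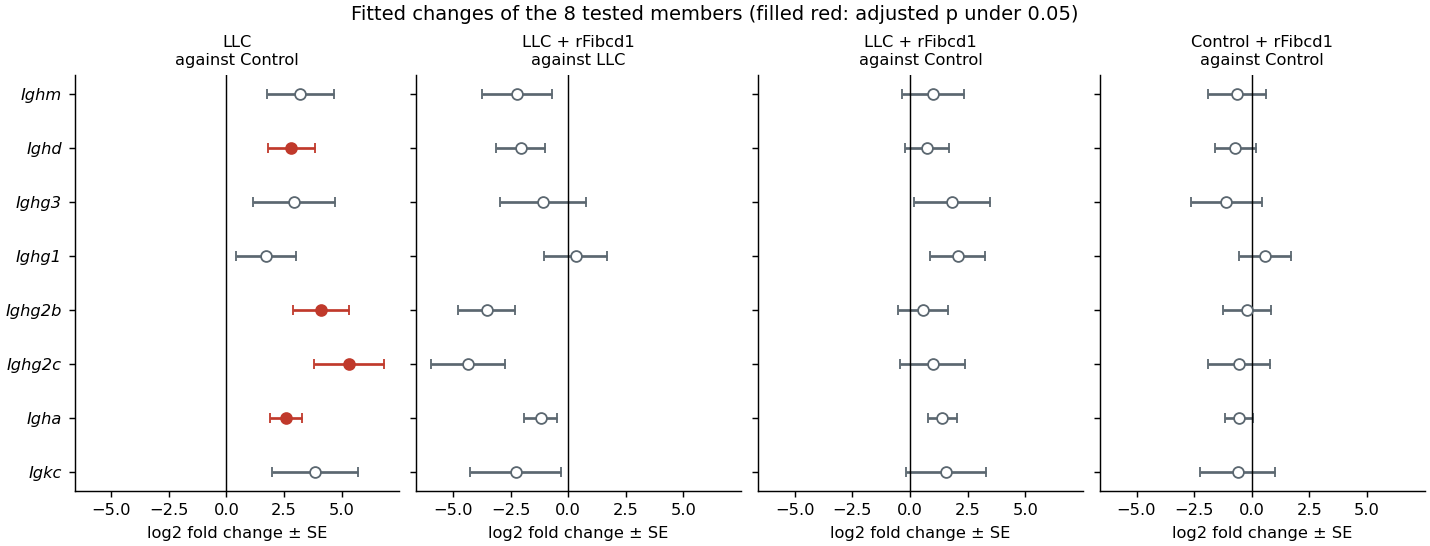
Fitted log2 fold change (horizontal axis, bars 1 SE) of the 8 tested members in 4 pairwise comparisons, with filled red points for an adjusted p under 0.05. In LLC against Control every member lies above 0 and 4 pass, in LLC + rFibcd1 against LLC 7 of 8 lie below 0 and none passes.

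In LLC + rFibcd1 against LLC, 0 of the 8 members passed by limma, beside 0.113% of all genes tested. Without adjustment 2 members passed by limma, beside 22.7% of all genes, and 0 by Dunn's test, beside 7.17%. Those were Ighg2b, with a difference of -3.54 ± 1.25 (log2, SE; limma adjusted p = 0.192), and Ighg2c, with -4.34 ± 1.61 (log2, SE; limma adjusted p = 0.196). The groups overlapped for every member tested, while 9.3% of all genes did not overlap and were lower. Fitted differences of Ighm (-2.22), Ighd (-2.07), Ighg3 (-1.10), Igha (-1.19) and Igkc (-2.28) were also below 0 and that of Ighg1 (0.33) was above it. The direction of Ighg1 was not stable. Its difference was -0.97 with 0.1 TPM added before taking logs instead of 1, and -1.51 to 1.05 in the fits without 1 mouse.

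The LLC + rFibcd1 mice did not form a common level. Ighm was at 220.8, 1630, 2830 and 150.4 TPM in mice 1 to 4, and Igkc at 342.9, 3813, 5936 and 272.5 TPM. Mouse 3 was within the range of LLC for both genes. Mouse 2 was below every LLC mouse and above 4 of the 5 Control mice, and mice 1 and 4 were below the Control median. Ighd was also higher in mice 2 and 3, at 2.67, 18.7, 61.7 and 3.40 TPM, and the value of mouse 3 was above that of every LLC mouse.

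Mouse 3 had more of each IgG gene than mouse 2 of that group. Ighg2c was at 1.29, 3.61, 414.3 and 1.12 TPM, and Ighg2b at 0.714, 3.92, 58.3 and 0.337 TPM. Mouse 3 reached the LLC range for these subclasses, and the other 3 mice lay below every LLC mouse. Ighg1 was at 0, 0.970, 206.1 and 0.0454 TPM, so that mouse 3 had 44.1 times the highest level in any LLC mouse. Ighg3 was at 0.180, 73.0, 546.2 and 1.85 TPM, with mouse 2 within the LLC range and mouse 3 above it. Without mouse 3, Ighg2c passed in LLC + rFibcd1 against LLC (limma adjusted p = 0.0485) and was the 1 member that did, beside 0.249% of all genes tested in that fit, which left out the mouse with the highest Ighg2c level of its group. Igha was at 1.81, 11.8, 19.3 and 6.33 TPM, with mice 2 and 3 inside the range of the LLC mice and mouse 4 above every Control mouse.

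In LLC + rFibcd1 against Control, which uses the same Control mice as LLC against Control, 0 of 8 members passed by limma (1 unadjusted, 0 by Dunn's test), beside 3.08% of all genes tested (19.9% unadjusted, 12.7% by Dunn's test). Igha was the member nearest to passing, with a change of 1.40 ± 0.63 (log2, SE; limma adjusted p = 0.234). In Control + rFibcd1 against Control, 0 members passed by limma (0 unadjusted, 0 by Dunn's test) and 0% of all genes did (4.39% unadjusted, 2.42% by Dunn's test). Ighm was at 1084, 228.8, 27.4, 79.2 and 598.0 TPM in Control + rFibcd1, and Igkc at 2198, 392.9, 16.6, 91.9 and 970.9 TPM. Both groups without a tumor ranged over more than the distance between their means, and the 95% interval for Ighm, from -3.33 to 2.06 (log2), leaves room for a large change either way. The interaction of tumor and rFibcd1, the direct test of whether rFibcd1 acted differently in tumor-bearing mice, passed for 0 of 8 members by limma (0 unadjusted) and for 0% of all genes (8.58% unadjusted). It was -3.32 (log2, adjusted p = 0.599) for Ighg2b and -3.79 (adjusted p = 0.650) for Ighg2c.

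With the 7 tumor-bearing mice set against the 10 tumor-free mice, 4 of 8 members rose by limma, beside 44.8% of all genes tested and 38.8% that were higher. They were the same 4 genes as in LLC against Control, which shares mice with this comparison. Igha rose by 2.19 ± 0.46 (log2, SE; limma adjusted p = 0.00347), Ighg2c by 3.12 (adjusted p = 0.0249), Ighd by 1.98 (adjusted p = 0.0303) and Ighg2b by 2.19 (adjusted p = 0.0387). For 0 of the 8 members did all tumor-bearing mice lie above all tumor-free mice, as they did for 1.74% of all genes. Igha passed in each of the 17 fits without 1 mouse, with adjusted p between 0.00103 and 0.0100. Ighg2c passed in 15 of these fits (adjusted p up to 0.0936), Ighd in 12 (up to 0.0871) and Ighg2b in 8 (up to 0.138). The number of members that passed was 1 without LLC mouse 2 or LLC mouse 3, 2 without LLC mouse 1 or without Control + rFibcd1 mouse 3 or mouse 4, 6 without Control + rFibcd1 mouse 1 or LLC + rFibcd1 mouse 1, and 7 without Control mouse 2 or LLC + rFibcd1 mouse 4. Over the same fits, 31.4% (without LLC mouse 3) to 49.8% (without Control + rFibcd1 mouse 1) of all genes tested passed.

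The share of each class in the heavy-chain sum sets the overall amount of immunoglobulin aside. These shares are described without a test. IgM held most of the sum in every mouse, between 68.4% in LLC + rFibcd1 mouse 3 and 97.3% in Control + rFibcd1. The 4 IgG genes together held 3.15% ± 0.613 in Control (SD, n = 5) and 11.8% ± 7.45 in LLC (SD, n = 3). LLC mice 1 to 3 had IgG shares of 4.36%, 11.7% and 19.3%, and Control mice ranged from 2.45% to 3.90%. All 3 LLC mice were above all Control mice, LLC mouse 1 by little. On read equivalents the LLC shares were 3.37%, 9.53% and 16.7%, and those of Control lay between 1.88% and 2.84%, so the order did not rest on the gene lengths. In LLC + rFibcd1 the IgG shares were 0.961%, 4.68%, 29.6% and 2.05%, which spanned those of both mock-injected groups. In Control + rFibcd1 the mean was 2.24% ± 2.15 (SD, n = 5), and mouse 1 of that group, at 6.00%, was its highest.

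Among tumor-free mice the IgM share was 93.0% ± 4.67 with mock injection and 96.0% ± 2.27 with rFibcd1 (SD, n = 5 each). Among tumor-bearing mice it was 86.1% ± 7.66 with mock injection (SD, n = 3) and 87.8% ± 13.1 with rFibcd1 (SD, n = 4). The 4 groups overlapped. Control overlapped LLC through mouse 5 alone, at 84.7%, while the other 4 Control mice were at 93.9% to 96.0% and the LLC mice at 78.3% to 93.6%. Without Control mouse 5 the LLC mean was 8.91 percentage points below that of Control, instead of 6.85. The LLC minus Control difference was -2.92 points without LLC mouse 3 and -10.6 points without LLC mouse 1. The IgD share had similar means in all groups, at 1.74% ± 1.06, 1.38% ± 0.391, 1.52% ± 0.597 and 1.46% ± 0.454 (SD) in the same order. IgA held 0.574% ± 0.245 in LLC (SD, n = 3) and 2.12% ± 3.87 in Control (SD, n = 5), where Control mouse 5 alone had 9.02% and the others had at most 0.845%. That mouse had the smallest heavy-chain sum, and its Igha value of 1.38 TPM lay inside the range of its group. Without it, the IgA share of LLC was 0.176 percentage points above that of Control instead of 1.55 points below. IgA held 0.367% ± 0.0793 in Control + rFibcd1 (SD, n = 5), and in LLC + rFibcd1 mouse 4 had 3.87% beside a group mean of 1.45% ± 1.62 (SD, n = 4).

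**Figure D3:**
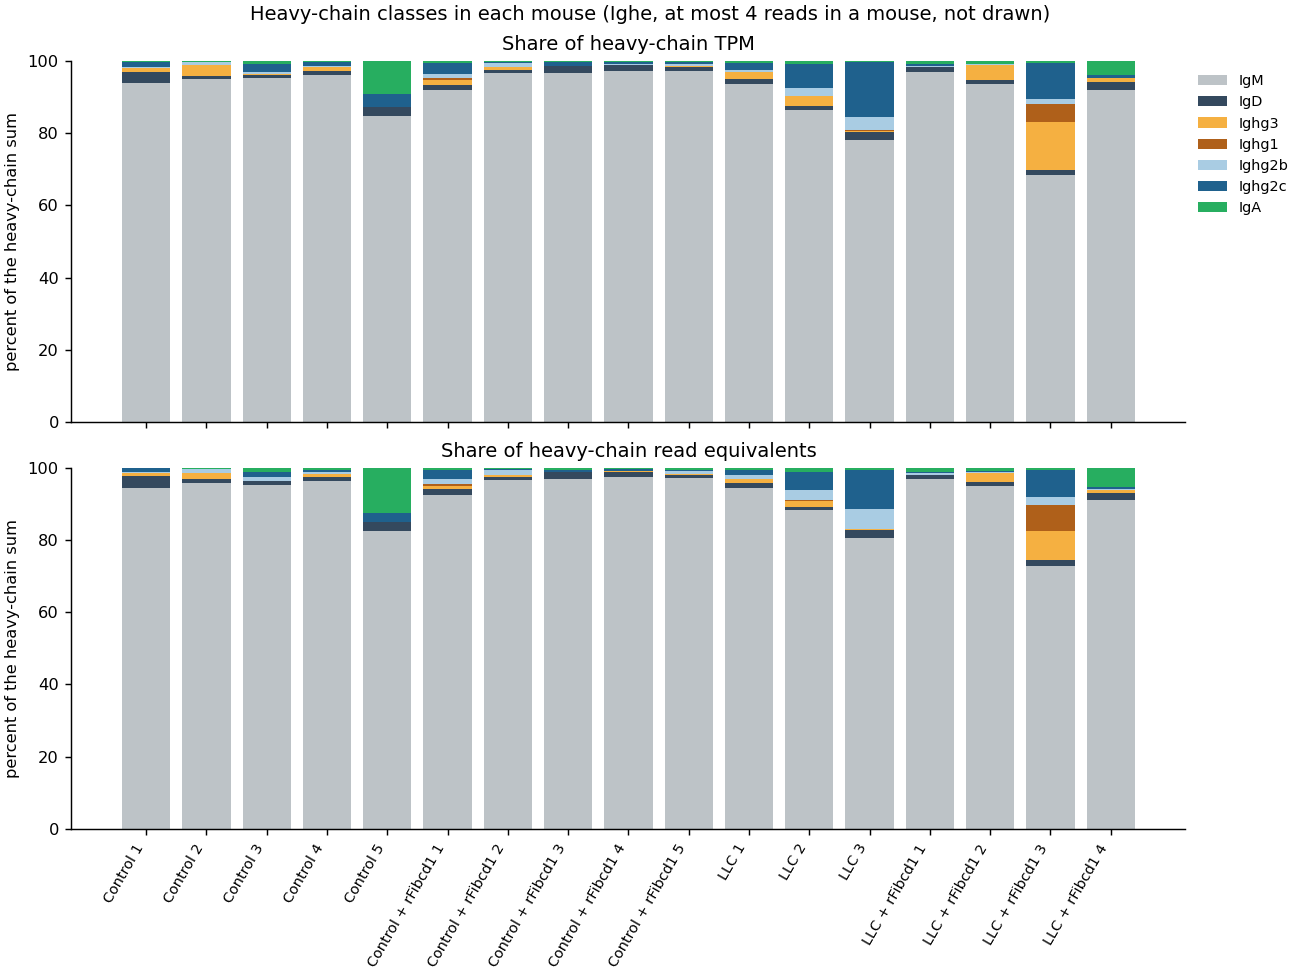
Percent of the heavy-chain sum (vertical axis) held by IgM, IgD, the 4 IgG genes and IgA in each of the 17 mice, in TPM (top) and in read equivalents (bottom). IgM fills most of every bar, the IgG segments are widest in LLC mice 2 and 3 and in LLC + rFibcd1 mouse 3, and the wide IgA segment belongs to Control mouse 5.

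The make-up of IgG differed from mouse to mouse. Ighg2c was the most abundant IgG gene in 10 of 17 mice, Ighg3 in 5, Ighg2b in 2 and Ighg1 in 0. In read equivalents these counts were 10, 4, 3 and 0. Ighg2c led in all 3 LLC mice, with 44.5%, 57.6% and 78.5% of IgG TPM. Ighg3 held 79.8% in Control mouse 2 and 89.6% in LLC + rFibcd1 mouse 2, a mouse whose heavy-chain sum of 1742 TPM was otherwise high. LLC + rFibcd1 mouse 3 differed from both patterns, with 44.6% Ighg3, 33.8% Ighg2c and 16.8% Ighg1. Ighg1 held at most 7.66% in any other mouse. In Control mouse 5 and Control + rFibcd1 mouse 3, all IgG reads were from Ighg2c, but these were 18 and 9 reads, so that other subclasses were not detectable at this depth.

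**Figure D4:**
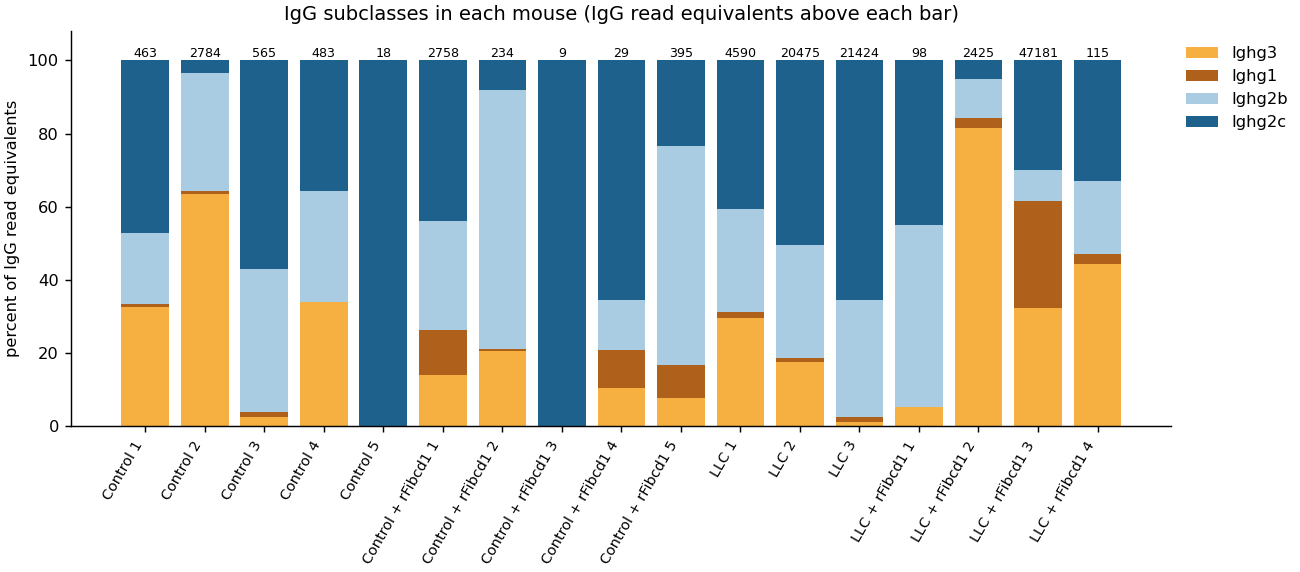
Percent of IgG read equivalents (vertical axis) from Ighg3, Ighg1, Ighg2b and Ighg2c in each mouse, with the total of IgG read equivalents above each bar. Ighg2c leads in the LLC mice, Ighg3 in Control mouse 2 and LLC + rFibcd1 mouse 2, and the widest Ighg1 segment is that of LLC + rFibcd1 mouse 3.

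The ratio of Igkc to the heavy-chain sum was between 1.44 and 2.19 in 14 mice. It was 0.310 in Control mouse 5, 0.585 in Control + rFibcd1 mouse 3 and 1.13 in Control + rFibcd1 mouse 4, the 3 mice with the smallest heavy-chain sums. In the first 2 of them Ighm exceeded Igkc, while Igkc was above Ighm in the other 15 mice. Jchain relative to the heavy-chain sum was also lowest in these mice, at 0.0301, 0.0146 and 0.0610, against 0.0670 to 0.114 elsewhere.

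Across the 17 mice, the genes most like a member were sought among 13129 tested genes that are not immunoglobulin segments. The correlations are descriptions over mice that share group and overall B cell level. Ighm was most like Jchain, the polymer-joining chain, with Pearson's r = 0.995, followed by Cxcl13 (0.955), the chemokine that draws B cells into follicles, and Cd79a (0.954), part of the B cell receptor. Igkc had the same 3 genes, with Jchain first (0.991). Ighd was most like Fcmr (0.994), the IgM Fc receptor, Ms4a1 (0.993), which encodes CD20, and Cd22 (0.993), a surface lectin of B cells. For Ighg2c the nearest genes were of another kind. They were Mcm2 (0.962), a subunit of the helicase that opens DNA for replication, Tnfsf8 (0.959), the CD30 ligand, and Arhgap11a (0.957). Igha was most like Mical1 (0.936), Gas7 (0.932) and Il3ra (0.928), a subunit of the interleukin-3 receptor. Among the members themselves, Ighm and Igkc were the most alike pair (0.994), Ighg2b and Ighg2c reached 0.932, and Igkc and Ighg1 were the least alike (0.510).

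**Figure D5:**
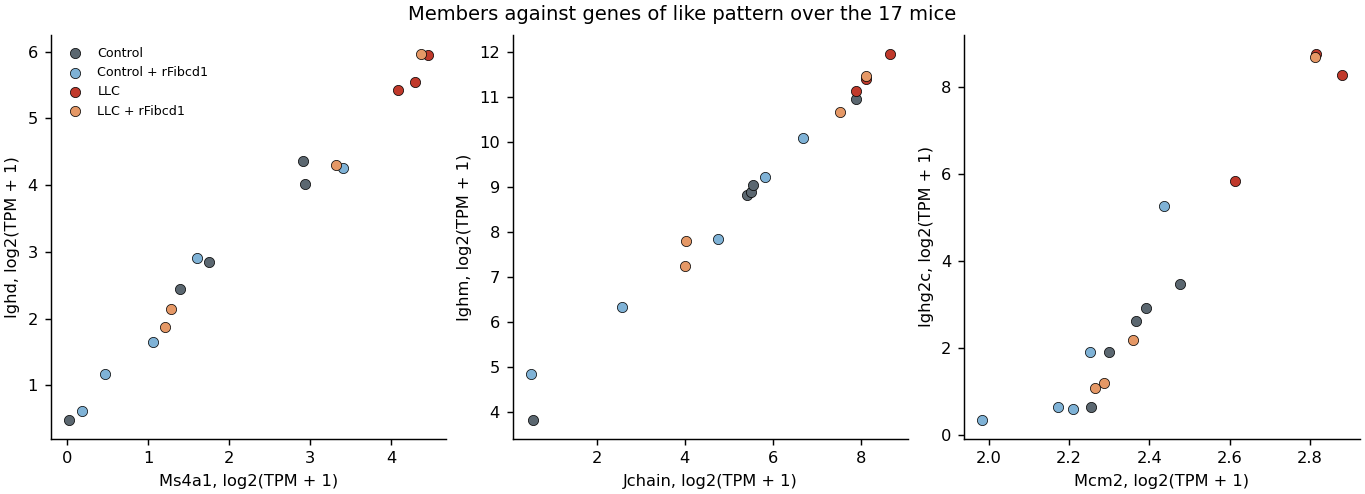
Ighd against Ms4a1, Ighm against Jchain and Ighg2c against Mcm2 on the log2(TPM + 1) scale (both axes) in the 17 mice, colored by group. In each panel the points follow a line across all 4 groups, with Pearson's r of 0.993, 0.995 and 0.962, and the LLC mice with LLC + rFibcd1 mouse 3 lie at its upper end.

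Other genes of the B cell line moved with the members. Of 14 B cell markers, 14 rose from Control to LLC by limma, beside 29.7% of all genes that passed as higher. Marker lists were not counted in the fit without LLC mouse 3, in which 0.182% of all genes passed in this comparison. Cd79a rose by 3.25 (log2, adjusted p = 0.0429), Cd79b by 2.75 (adjusted p = 0.0430) and Ms4a1 by 2.47 (adjusted p = 0.0339). The 14 B cell markers summed to 3.40 to 133.0 TPM in Control, 5.06 to 188.9 in Control + rFibcd1, 310.4 to 401.7 in LLC and 24.3 to 386.4 in LLC + rFibcd1. Of them, 13 were above 0 in every mouse, Cr2 being at 0 in Control mouse 5. Of 14 plasma cell markers, 10 rose, beside the same 29.7%. Among them was Pou2af1 by 2.76 (adjusted p = 0.0444), a coactivator of immunoglobulin promoters. Jchain (3.24, adjusted p = 0.114) and Mzb1 (2.23, adjusted p = 0.0694), a chaperone of IgM assembly, did not pass. The plasma cell list summed to 129.9 to 463.5 TPM in Control and 560.1 to 754.0 in LLC, and all 14 were above 0 in every mouse. In Control mouse 5, Xbp1 was at 37.7 TPM and Sdc1 at 4.01 TPM, while Jchain was at 0.460 TPM. The sum is therefore not read as a level of plasma cells. For no gene of these lists did LLC + rFibcd1 against LLC pass (limma, 6 of 14 B cell and 5 of 14 plasma cell markers unadjusted), beside 0.113% of all genes tested (22.7% unadjusted).

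Of 26 genes of class switching and its signals, 16 were tested and 8 rose from Control to LLC, beside 29.7% of all genes that passed as higher. Tnfrsf13c (2.31, adjusted p = 0.0247) and Tnfrsf13b (1.90, adjusted p = 0.0199), receptors for B cell survival factors, changed most. Of 11 antibody receptors and transporters, 10 were tested and 7 rose, beside the same 29.7%. Among them were Fcmr by 2.55 (adjusted p = 0.0343) and Fcgr2b, the inhibitory IgG receptor, by 1.17 (adjusted p = 0.0151). Pigr, which carries polymeric IgA and IgM across epithelia, was at 0.97 (adjusted p = 0.553), with 49.0 TPM in LLC mouse 3 and less than 0.3 TPM in the other LLC mice.

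Lists of markers of other cells were counted in LLC against Control, where 29.7% of all genes passed as higher. T cell markers rose in 13 of 13 cases, with sums of 4.35 to 40.7 TPM in Control, 64.4 to 101.5 TPM in LLC and 6.89 to 105.1 TPM in LLC + rFibcd1, led by Trbc2 (2.27, adjusted p = 0.0273) and Trac (2.01, adjusted p = 0.020), and all but Cd6 were above 0 in every mouse. Of 5 tested genes of lymphoid stroma and high endothelial venules 3 rose, with Cxcl13 at 3.06 (adjusted p = 0.0435) and Glycam1 at 2.54 (adjusted p = 0.0159). Their sum was 236.2 to 303.5 TPM in Control and 281.3 to 438.7 TPM in LLC, with Glycam1, Madcam1 and Fcgbp at 0 in some mice. Neutrophil markers rose in 6 of 6 tested cases, S100a9 by 3.33 (adjusted p = 0.0135) and S100a8 by 3.01 (adjusted p = 0.0133), and macrophage markers in 5 of 9, among them Cd68 (1.23, adjusted p = 0.0290) and not Lyz2 (1.34, adjusted p = 0.0699). Adipocyte markers rose in 0 of 7 cases (3 unadjusted), with Cidec at 1.83 (adjusted p = 0.0766) and Plin1 at 1.73 (adjusted p = 0.106). Mesothelial markers rose in 1 of 8 cases (1 unadjusted), which was Muc16 (0.68, adjusted p = 0.0467). The most changed mesothelial genes, Krt19 (1.07, adjusted p = 0.193) and Upk3b (0.80, adjusted p = 0.243), did not pass. Red cell genes rose in 1 of 5 cases (5 unadjusted), with Alas2 at 1.56 (adjusted p = 0.0436) and Hbb-bt at 1.5 (adjusted p = 0.0622). Of 9 skeletal muscle genes 0 rose and 5 fell, Myh1 by 0.64 (adjusted p = 0.00930), with Myh4 at 0.74 (adjusted p = 0.243). The part of these cells in the levels of the constant regions was not tested.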

How the data were processed

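Diaphragm RNA of 17 mice was sequenced as paired 100 bp reads. The authors trimmed and filtered the reads, aligned them to GRCm38 (mm10) and quantified genes with CLC Genomics Workbench, and the deposited values are TPM, in which the authors scaled each mouse to a common sum. Labels and methods differ on the library kit, so strandedness was not settled. Groups were taken from the sample titles.

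Symbols were matched to GENCODE vM21 (45090 of 47643, 94.6%). TPM steps of low genes gave the reads behind a value, 80.5% to 83.3% of low values lying within 0.02 of a whole read. The limit given for a count of 0 covers counting error only, and the 95% intervals of fitted changes cover the spread between mice. The 13305 genes that reached 1 TPM in 3 mice or more were tested on log2(TPM + 1) with limma 3.58.1 in R 4.3.3, all 4 groups in 1 model with 13 residual degrees of freedom, an expression trend, two-sided tests and Benjamini-Hochberg adjustment over all genes (threshold 0.05). The pseudocount understates changes of low genes. The authors' rank test (Dunn) was an alternative, beside other pseudocounts, filters and scalings, a replicate block and fits without 1 mouse. On data simulated for LLC against Control over 13305 genes, log2 changes of 0.5, 1, 2 and 4 were recovered in 64%, 84%, 96% and 100% of cases. The changed genes were drawn from all genes tested, with values drawn independently for each gene. These rates are therefore not those of the members, whose SE was 0.69 to 1.88 (log2). Named genes were all members, the 2 most changed genes of each list, 10 genes of the B cell line, and for 5 members the 3 genes of highest correlation. Muc16, Xbp1 and Sdc1 were named besides, for their values. Members and lists were chosen with earlier results of these data known. No batch is given in the labels, so none could be tested.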

Additional observations from a re-analysis of the deposited data

Results flagged for a closer look

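In groups of 4 or 5 mice, a value was singled out where its distance to the nearest other mouse exceeded Dixon's 95% critical value as a part of the range of the group. This met 12 of 38 values tested, where chance alone singles out about 1 in 20 groups, and the members are not independent of each other. In Control, mouse 5 stood apart with Igkc at 2.52 on the log2(TPM + 1) scale, an IgM share of 84.7% of heavy-chain TPM and an IgA share of 9.02%. In Control + rFibcd1, mouse 1 stood apart with Ighg1 at 2.68 and Ighe at 0.0430 on the log2(TPM + 1) scale, which for Ighe is 1 read, an IgG share of 6.00% and an IgM share of 92.0%. In LLC + rFibcd1, mouse 3 stood apart with Ighg1 at 7.69 and Ighg2c at 8.70 on the log2(TPM + 1) scale and an IgG share of 29.6%. In the same group, mouse 1 stood apart with Ighe at 0.0406, again 1 read, and mouse 4 with an IgA share of 3.87%. In both groups the other mice had 0 reads of Ighe, so that any read would have been singled out.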

How the results depend on the processing

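The number of members that passed in LLC against Control was 0 to 5 over the 17 fits without 1 mouse, with 0 in the fit without LLC replicate 3 (0.182% of all genes tested), and 3 to 5 in the other settings except the replicate block, with which it was 0 (0.0376% of all genes). In tumor-bearing against tumor-free mice it was 1 to 7 over the fits without 1 mouse, 3 or 4 in the other settings and 1 with the replicate block (28.4% of all genes). In LLC + rFibcd1 against LLC it was 0 in every other setting and 0 to 1 without 1 mouse. In the remaining comparisons it was 0 throughout. Among pairs of mice with the same number, 4 of 22 had a correlation over 0.1 of their deviations from group means (range -0.459 to 0.485). Pairs with different numbers were not compared, so whether the numbers pair the mice was not settled. Ighd in LLC against Control missed the threshold in 7 of 12 settings and Ighg2b in tumor-bearing against tumor-free mice in 5 of 11. In LLC + rFibcd1 against LLC, Ighg1 turned from 0.33 to -0.97 with a pseudocount of 0.1 TPM, to -0.030 with 0.5 TPM and to -4.375 mean ranks by Dunn's test. Without 1 mouse, it ranged from -1.51 to 1.05, with -0.028 without LLC replicate 1, and Ighg3 from -2.71 to 0.24. The LLC minus Control difference of the share from group sums was 0.262 points for IgA and 0.153 for IgD. From the mean shares of the mice, the differences were 8.62 points for IgG, -6.85 for IgM, -1.55 for IgA and -0.22 for IgD. Without 1 mouse, the differences of mean shares ranged from 4.87 to 12.3 points for IgG and -10.6 to -2.92 for IgM. They ranged from -2.05 to 0.176 for IgA and -0.505 to 0.140 for IgD. The cause was not tested. Rescaling by median ratios moved the median of all genes in LLC against Control from 0.16 to -0.01, and quantile normalization to -0.10. Without the filter Ighd missed the threshold (adjusted p = 0.0666), and the count includes Ighe, from which no change is read. Reads in single digits limit Ighe, and the SE of the tested members in LLC against Control was 0.69 to 1.88 (log2).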
